A study of Rattus norvegicus with 18 samples.

Results

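Disease-associated microglia genes are the transcripts that microglia were found to raise around amyloid plaques, and Trem2 is the receptor most tied to that state. Of 10 such genes (Trem2, Tyrobp, Clec7a, Cst7, Spp1, Cd9, Cd68, Itgax, Axl and Gpnmb), looked up by symbol in the gene count tables, 9 were found, and Itgax was not among the symbols. They were read in all 18 libraries of primary glia from the cortex of neonatal Sprague-Dawley rats, of wild-type genotype. Astrocytes and microglia were each left untreated (control), or exposed for 24 h to fibrils of Aβ42 or to fibrils of Aβ40, the longer and the shorter of the main amyloid-β peptides, with 3 libraries in each of the 6 groups. Microglia had been shaken off mixed glial cultures and astrocytes were the adherent layer left behind. Nothing states that the replicates came from separate cultures, so p-values measure only the spread between these libraries. All 9 genes passed the filter on low counts in microglia and 8 did in astrocytes, where Cst7 was too low.

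Trem2 is a lipid-sensing receptor of the microglial surface with no signalling tail of its own. It passes its signal through the adaptor Tyrobp (DAP12), which recruits the kinase Syk. In mouse models of amyloid deposition, microglia that engage plaques lower their resting-state genes and raise a programme of lipid handling, lysosomal and phagocytic genes, and its full form depends on Trem2. The genes followed here hold several roles in that programme: the receptor and its adaptor (Trem2, Tyrobp), other surface receptors for phagocytic cargo (Clec7a, Axl), secreted proteins (Spp1, Cst7), a tetraspanin (Cd9) and proteins of the lysosome and its membranes (Cd68, Gpnmb).

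RefSeq promoter windows of the GRCr8 assembly, 250 bases before to 50 bases after the start of the gene, were given for 9 of the 10 symbols, Itgax included and Tyrobp not. Letter patterns were searched on both strands, those of PU.1 (GAGGAAGT), of an E-box bound by MiT/TFE factors (CACGTG), of AP-1 (TGANTCA) and of C/EBP (TTGCNNAA). AP-1 letters stood in 5 of the 9 windows (Trem2, Cst7, Cd68, Itgax and Gpnmb), against 7.33% of the 33469 windows of the same length in the table. C/EBP letters stood in 2 (Trem2 and Cst7), against 10.6% of all windows. Neither the PU.1 letters, held by 2.42% of all windows, nor the letters CACGTG, held by 6.42%, were found in these windows. Other forms of the PU.1 pattern and of the E-box were not searched, so their absence is not shown. Windows with a match are shown for Trem2, Cd68 and Gpnmb, which were lower with fibrils in microglia, and for Cst7, which was higher. AP-1 and C/EBP letters are in capitals. The windows of Clec7a, Spp1, Cd9 and Axl, also lower in microglia with both fibrils, held none of the patterns searched. A match describes letters and is not a bound site.
Trem2, chr9:20151730-20152029, minus strand: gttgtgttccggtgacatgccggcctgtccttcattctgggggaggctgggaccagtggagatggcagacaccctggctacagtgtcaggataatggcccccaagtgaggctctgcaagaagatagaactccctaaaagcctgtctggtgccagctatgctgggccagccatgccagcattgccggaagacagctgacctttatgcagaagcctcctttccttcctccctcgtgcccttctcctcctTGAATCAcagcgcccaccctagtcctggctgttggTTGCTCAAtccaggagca
Cst7, chr3:159857030-159857329, plus strand: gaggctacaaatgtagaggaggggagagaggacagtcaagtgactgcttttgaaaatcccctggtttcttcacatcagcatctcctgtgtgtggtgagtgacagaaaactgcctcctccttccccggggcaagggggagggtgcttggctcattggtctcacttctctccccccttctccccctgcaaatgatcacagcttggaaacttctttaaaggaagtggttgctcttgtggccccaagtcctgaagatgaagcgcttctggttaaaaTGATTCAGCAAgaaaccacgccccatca
Cd68, chr10:54882392-54882691, minus strand: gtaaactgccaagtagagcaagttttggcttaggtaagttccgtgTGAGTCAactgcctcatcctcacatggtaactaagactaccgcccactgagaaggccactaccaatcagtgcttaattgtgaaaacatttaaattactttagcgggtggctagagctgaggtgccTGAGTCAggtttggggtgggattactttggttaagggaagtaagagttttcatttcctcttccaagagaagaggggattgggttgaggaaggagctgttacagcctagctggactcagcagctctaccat
Gpnmb, chr4:79340878-79341177, plus strand: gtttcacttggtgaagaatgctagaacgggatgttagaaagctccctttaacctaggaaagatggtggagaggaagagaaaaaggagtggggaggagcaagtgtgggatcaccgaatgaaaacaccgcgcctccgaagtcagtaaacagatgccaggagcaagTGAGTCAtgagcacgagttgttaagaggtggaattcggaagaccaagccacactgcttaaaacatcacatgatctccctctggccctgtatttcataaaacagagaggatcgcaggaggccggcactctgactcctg
In Trem2 the AP-1 letters began 3 bases before the start of the gene and the C/EBP letters 32 bases after it. The Cst7 window held the patterns in overlap, beginning 22 and 25 bases after its start. Cd68 carried AP-1 letters 205 and 80 bases before its start, and Gpnmb 87 bases before.

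Libraries held 2271834 to 22274367 counts on genes. In microglia the controls held 5098145 to 8249339, the Aβ42 libraries 2613723, 22274367 and 17687416, and the Aβ40 libraries 2271834 to 4425805. Levels are given as CPM, counts relative to library size, on a TMM scale set over all 18 libraries, tests come from edgeR's quasi-likelihood fit over every gene of a cell type, and a call is an adjusted p under 0.05 at any fold. No transcript lengths were used, so levels compare a gene between libraries and not with another gene. Markers were read as a check of the labels: 16 microglia markers summed to 10966 to 12833 CPM in control microglia and 573 to 688 CPM in control astrocytes, and 12 astrocyte markers to 273 to 309 CPM and 8438 to 10259.5 CPM. All 6 defining markers of each type were above 3 counts in at least 1 library of their own controls. The same held in the controls of the other type, so this does not tell the types apart. Genes of the oligodendrocyte lineage were also present, at a sum of 2612 to 2920 CPM in control microglia and 1801 to 2866 CPM in control astrocytes. Replicate 1 of Aβ42-treated microglia and replicate 2 of control astrocytes stood apart from their groups. Their mean chi-square per degree of freedom against their group mates was 22.4 to 22.9 and 28.3 to 44.3. Other replicate pairs had 1.76 to 18.9. The measure is taken on counts, so it also grows with depth, which differed between libraries. Values of the 9 genes that move by over 1.5 times without these replicates are given both ways. Both fibril comparisons within a cell type share their control libraries.

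Most of these genes fell in microglia with either fibril. With Aβ42 fibrils 7 of 9 fell, Cst7 rose and Tyrobp did not pass the test, where 26.6% of the 10837 genes tested were called lower and 27.1% higher. With Aβ40 fibrils 8 of 9 fell and Cst7 rose, against 21.4% lower and 19.6% higher. The median log2 fold change of the 9 was -0.86 with Aβ42 and -1.06 with Aβ40, beside 0.01 for all genes in each. Without Aβ42 replicate 1, 8 fell and 1 rose with each fibril. With Aβ42 7 genes had all treated libraries below all controls and 1 had them above, as 28.2% and 25.8% of all genes did, and with Aβ40 8 and 1, against 30.5% and 29%. By at least 2-fold, 4 fell and 1 rose with Aβ42 (9.93% and 11.4% of all genes) and 6 fell and 1 rose with Aβ40 (8.63% and 8.95%). Other markers moved in the same libraries. Of 16 microglia markers 12 fell with Aβ42 and 14 with Aβ40 (medians -2.07 and -1.86), and their sum went from 10966 to 12833 CPM down to 3831 to 5034 CPM and 4454 to 4879 CPM. Of 8 oligodendrocyte-lineage markers 6 rose with Aβ42 and 5 with Aβ40. Their sum went from 2612 to 2920 CPM to 3149 to 4259 CPM and 3143 to 3914 CPM. The sum of neuron markers went from 360 to 378 CPM to 450 to 529 CPM and 500 to 523 CPM. That of endothelial markers went from 205 to 211 CPM down to 47.7 to 70.3 CPM and 100 to 126 CPM. Sums of astrocyte and of fibroblast markers overlapped their controls with each fibril. The part of all these markers in the result was not tested. None of the 9 passed a 5-fold threshold by edgeR, which 2.57% of all genes passed downward and 3.69% upward with Aβ42, and 2.47% and 3.36% with Aβ40.

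The receptor fell in steps. Trem2 stood at 461, 471 and 553 CPM in control microglia, at 224, 308 and 291 CPM with Aβ42 fibrils and at 163, 167 and 156 CPM with Aβ40 fibrils. The 3 groups did not overlap. The log2 fold change was -0.86 ± 0.12 (SE, adjusted p = 8.41e-05, edgeR) with Aβ42 and -1.61 ± 0.13 (adjusted p = 6.42e-07) with Aβ40. Its adaptor Tyrobp, which also serves other receptors of myeloid cells, moved less. Tyrobp was at 542, 449 and 579 CPM in controls, 441, 407 and 481 CPM with Aβ42 and 390, 433 and 373 CPM with Aβ40. Aβ42 libraries overlapped the controls (log2 fold change -0.26 ± 0.12, adjusted p = 0.085, edgeR), and all Aβ40 libraries lay below them (-0.39 ± 0.12, adjusted p = 0.0196). The Aβ42 value of Tyrobp passed without control replicate 2 (-0.35, adjusted p = 0.0298) or without Aβ42 replicate 1 (-0.28, adjusted p = 0.0321), and the Aβ40 value failed without control replicate 1 or 3 or Aβ40 replicate 1 or 3, with adjusted p from 0.0704 to 0.121.

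Trem2 was also set against its adaptor within each library, a ratio that no scaling between libraries touches. Trem2 counts per 100 Tyrobp counts were 85, 105 and 95.5 in control microglia, 50.9, 75.7 and 60.5 with Aβ42 fibrils and 41.9, 38.7 and 41.9 with Aβ40 fibrils. The mean went from 95.1 ± 9.95 (SD, n = 3) to 62.4 ± 12.5 and 40.8 ± 1.84, and no group overlapped another. The exact two-sided permutation test gave p = 0.1 for each pair of groups, the smallest that 3 libraries against 3 allow. In astrocyte cultures the ratio was 50.8, 22 and 60.4 in controls, 9.21, 2.5 and 29.4 with Aβ42 and 5.26, 5.41 and 16.7 with Aβ40, on 1 to 8 Trem2 counts per treated library. Those controls overlapped the Aβ42 libraries (exact permutation p = 0.2) and not the Aβ40 libraries (exact permutation p = 0.1).

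**Figure D1:**
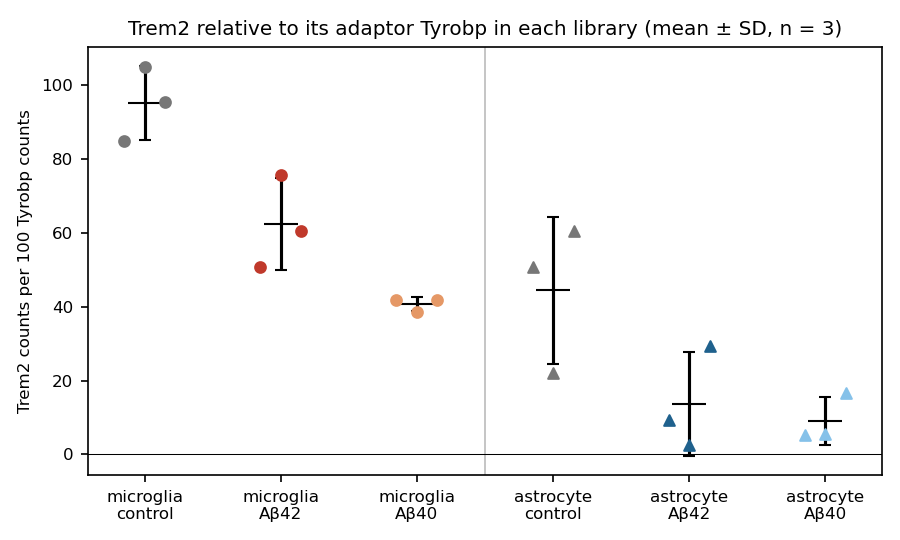
Trem2 counts per 100 Tyrobp counts (linear axis) in each of the 18 libraries, by group, circles for microglia and triangles for astrocytes, with the mean and SD of 3 libraries. In microglia the controls sit between 85 and 105, above every Aβ42 library, and the Aβ40 libraries lie between 38.7 and 41.9.

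Of the other surface receptors, Clec7a (dectin-1, a lectin for fungal glucans that signals through Syk and Card9) fell in microglia from 239, 280 and 234 CPM to 94.3, 54.4 and 62.5 CPM with Aβ42 and 85.5, 84.5 and 99.1 CPM with Aβ40. All treated libraries lay far below the controls (log2 fold change -1.89 ± 0.19 and -1.49 ± 0.19, adjusted p = 4.05e-06 and 4.12e-05, edgeR). Axl is a receptor tyrosine kinase for the bridging protein Gas6, which marks dying cells. It went from 594, 619 and 669 CPM to 209, 228 and 265 CPM with Aβ42 and 307, 308 and 284 CPM with Aβ40. Its 3 groups were apart from each other (log2 fold change -1.44 ± 0.11 and -1.06 ± 0.10, adjusted p = 3.09e-07 and 5.2e-06).

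The secreted proteins went opposite ways. Spp1 (osteopontin), a matrix protein that binds integrins and Cd44, fell from 3490, 4877 and 3805 CPM to 2841, 2083 and 2483 CPM with Aβ42 and 1637, 1493 and 1984 CPM with Aβ40. The groups did not overlap, and the log2 fold changes were -0.73 ± 0.16 and -1.25 ± 0.17 (adjusted p = 0.0028 and 7.02e-05, edgeR). Cst7 (cystatin F), an inhibitor that holds back cathepsin C and other lysosomal cysteine proteases, was the gene that rose. It was at 9.17, 5.83 and 5.23 CPM in controls, 27.5, 19.8 and 23 CPM with Aβ42 and 28, 20.7 and 21.7 CPM with Aβ40. Treated libraries were all above the controls, 3.23-fold higher with Aβ42 (log2 1.69 ± 0.23, adjusted p = 5.43e-05, edgeR) and 3.41-fold with Aβ40 (log2 1.77 ± 0.24, adjusted p = 8.06e-05).

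Among proteins of the surface web and the lysosome, Gpnmb, a membrane glycoprotein induced when lysosomes are loaded, changed by the most with Aβ40. Gpnmb fell from 8005, 10814 and 9049 CPM to 3261, 2463 and 2487 CPM with Aβ42 and 2050, 2173 and 2698 CPM with Aβ40 (log2 fold change -1.77 ± 0.17 and -2.01 ± 0.17, adjusted p = 2.83e-06 and 1.24e-06, edgeR). Cd68, a glycoprotein of the lysosome membrane used as a marker of phagocytic cells, went from 2511, 2567 and 2859 CPM to 1559, 671 and 770 CPM with Aβ42 and 1068, 1168 and 1647 CPM with Aβ40. Aβ42 replicate 1 lay far above the other two of its group, and without it the log2 fold change went from -1.41 ± 0.28 (adjusted p = 0.0013) to -1.92 (adjusted p = 2.17e-08). With Aβ40 Cd68 stood at -1.03 ± 0.28 (adjusted p = 0.0113), and lost the call without Aβ40 replicate 1 (-0.90, adjusted p = 0.0585) or replicate 2 (-0.96, adjusted p = 0.0501). The tetraspanin Cd9, which organises other membrane proteins, had the smallest called change with Aβ42, from 364, 479 and 389 CPM to 284, 350 and 354 CPM with Aβ42 and 265, 296 and 285 CPM with Aβ40. Its treated libraries all lay below the controls (log2 fold change -0.33 ± 0.12, adjusted p = 0.0363, and -0.54 ± 0.12, adjusted p = 0.00372). The Aβ42 call of Cd9 was lost without control replicate 2 or 3, Aβ42 replicate 2 or 3, or Aβ40 replicate 2, with log2 fold changes from -0.37 to -0.20, and with only the compared groups fitted (-0.31).

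**Figure D2:**
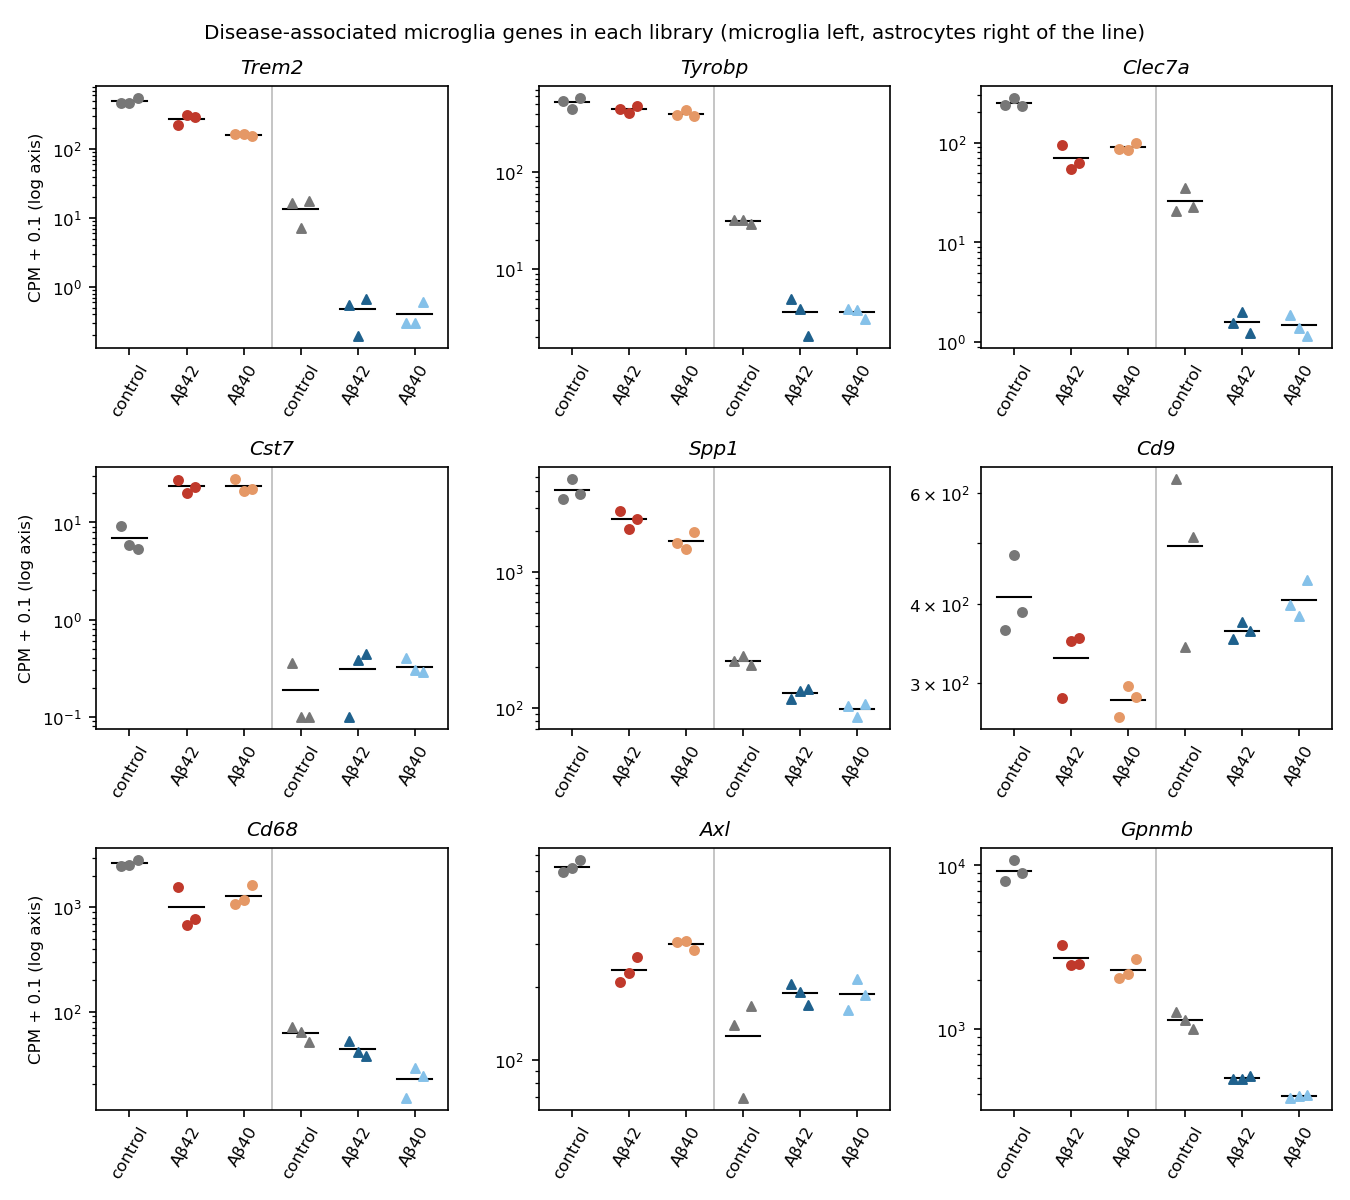
Level of each of the 9 genes in the 18 libraries, as CPM + 0.1 on a log axis of its own for each gene, with microglia as circles left of the line, astrocytes as triangles right of it, and a bar at the mean of 3 libraries. Trem2 spans from 553 CPM in control microglia down to 0.0957 CPM in Aβ42-treated astrocytes, and Cst7 is the one panel in which treated microglia lie above their controls.

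The fibrils were then set against each other in microglia. Trem2 and Spp1 were higher with Aβ42 than with Aβ40 and Axl was lower, and the other 6 genes did not pass, where 11.3% of all genes were called higher and 9.01% lower. The log2 difference, Aβ42 minus Aβ40, was 0.74 ± 0.12 for Trem2 (adjusted p = 0.0081, edgeR), 0.52 ± 0.16 for Spp1 (adjusted p = 0.0449) and -0.37 ± 0.10 for Axl (adjusted p = 0.0335), each with libraries that did not overlap. Only the Trem2 call among these held without any 1 library. The Spp1 call was lost without any library but Aβ42 replicate 1 (log2 differences from 0.43 to 0.65), and the Axl call without control replicate 1, Aβ42 replicate 2 or 3, or any Aβ40 replicate (-0.46 to -0.34). Both calls were also lost with only the compared groups fitted (adjusted p = 0.0879 for Spp1 and 0.0805 for Axl), and that of Spp1 with DESeq2 size factors (adjusted p = 0.0516). Without Aβ42 replicate 1, 3 further genes passed: Clec7a at -0.64 (adjusted p = 0.000155, against -0.40 ± 0.19 with all libraries), Cd68 at -0.88 (adjusted p = 0.000172, against -0.38 ± 0.28) and Cd9 at 0.28 (adjusted p = 0.0305, against 0.21 ± 0.12). Tyrobp (0.13 ± 0.12), Cst7 (-0.08 ± 0.21) and Gpnmb (0.23 ± 0.16) did not pass, nor did they without it (0.11, -0.18 and 0.065), which does not show that the fibrils act alike on them.

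In untreated cultures 7 of the 8 genes tested in both cell types were lower in astrocytes than in microglia, where 34.2% of the 11581 genes tested in the joint fit were called lower and 34.5% higher. Trem2 in control astrocytes was at 16.2, 6.96 and 17.8 CPM, 2.76% of the microglial mean (log2 difference -5.13 ± 0.26, adjusted p = 1.73e-12, edgeR). The share was 5.92% for Tyrobp, 5.48% for Spp1, 2.34% for Cd68, 10.4% for Clec7a, 12.2% for Gpnmb and 19.9% for Axl. Cst7 had 1, 0 and 0 counts in control astrocytes, so it is not counted and no fold is given. Cd9, which many cell types carry, was at 631, 342 and 512 CPM in astrocytes and overlapped microglia (log2 difference 0.27 ± 0.16, adjusted p = 0.152), and passed without astrocyte control replicate 2 (0.47, adjusted p = 0.00275). Over the 16 microglia markers the astrocyte level was 1.46% to 59.6% of the microglial one, with a median of 5.18%.

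With fibrils, the astrocyte cultures lost most of what they held of Trem2, Tyrobp and Clec7a. Of the 8 genes tested, 5 fell with Aβ42 and 6 with Aβ40, where 20.4% and 18.4% of the 11690 genes tested were called lower, and 16.5% and 14.9% higher. The median log2 fold change of the 8 was -0.998 with Aβ42 and -1.51 with Aβ40, beside -0.00 and 0.00 for all genes. Without control replicate 2, 6 fell with Aβ42 and 7 with Aβ40. Trem2, Tyrobp and Clec7a also passed the 5-fold threshold with either fibril, as 3.24% of all genes did downward with Aβ42 and 2.6% with Aβ40. In bulk RNA, fewer cells of a type and less RNA per cell cannot be told apart.

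Trem2 dropped from 62, 31 and 273 counts in control astrocytes to 7, 1 and 5 counts with Aβ42 (0.451, 0.0957 and 0.578 CPM) and 2, 4 and 8 counts with Aβ40 (0.199, 0.2 and 0.5 CPM). The log2 fold changes, -5.21 ± 0.49 and -5.49 ± 0.48 (adjusted p = 1.13e-05 and 7.3e-06, edgeR), rest on those few counts, and were -5.50 and -5.79 without control replicate 2. Tyrobp fell from 31.9, 31.7 and 29.4 CPM to 4.89, 3.83 and 1.96 CPM with Aβ42 and 3.79, 3.7 and 3 CPM with Aβ40 (log2 -3.08 ± 0.26 and -3.16 ± 0.25, adjusted p = 4.01e-06 and 3.45e-06). Clec7a fell from 20.7, 35.3 and 22.6 CPM to 1.48, 1.91 and 1.16 CPM with Aβ42 and 1.79, 1.30 and 1.06 CPM with Aβ40 (log2 -4.10 ± 0.28 and -4.28 ± 0.28, adjusted p = 9.92e-07 and 7.65e-07). For each of these receptors and the adaptor, all treated libraries lay below all controls. Markers of microglia moved with them: the 16 markers summed to 573 to 688 CPM in control astrocyte cultures, 79.5 to 90.7 CPM with Aβ42 and 63.9 to 67.8 CPM with Aβ40, and 14 of 16 fell with Aβ42 and 15 with Aβ40. Csf1r, a growth factor receptor of microglia, went from 106 to 124 CPM down to 4.16 to 5.67 CPM and 2.4 to 3.06 CPM. Among the 6 defining markers, Cx3cr1 was at or under 3 counts in all treated astrocyte libraries and P2ry12 in all Aβ42 libraries. In microglia cultures these markers fell too, at log2 -3.87 and -3.90 for Csf1r, -7.08 and -6.97 for Cx3cr1 and -6.09 and -5.67 for P2ry12. With Aβ42, Spi1 and Fcer1g fell in astrocytes (-2.14 and -3.12) and were not called in microglia (-0.15 and -0.39). Irf8 (-0.13) and Ctss (-0.20) were the markers not called in astrocytes with Aβ42, and Irf8 (-0.01) with Aβ40. The part of the 16 markers in the result was not tested.

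The remaining genes kept a larger share of their control level in astrocytes. Gpnmb fell from 1265, 1131 and 1000 CPM to 497, 496 and 515 CPM with Aβ42 and 380, 391 and 396 CPM with Aβ40 (log2 -1.19 ± 0.11 and -1.56 ± 0.11, adjusted p = 1.01e-05 and 1.59e-06, edgeR). Spp1 fell from 221, 241 and 205 CPM to 116, 134 and 138 CPM and 102, 85.5 and 107 CPM (log2 -0.81 ± 0.13 and -1.20 ± 0.13, adjusted p = 0.000473 and 2.94e-05). Both genes had treated libraries wholly below the controls. Cd68 was at 71.7, 63.6 and 50.5 CPM in controls, overlapped them with Aβ42 at 52.5, 40.7 and 37.1 CPM (log2 -0.52 ± 0.24, adjusted p = 0.124), and fell with Aβ40 to 14.8, 28.7 and 23.8 CPM (log2 -1.46 ± 0.25, adjusted p = 0.000941). Cd9 was at 352, 375 and 363 CPM with Aβ42 and 399, 383 and 437 CPM with Aβ40, which overlapped its scattered controls (log2 -0.47 ± 0.19 and -0.30 ± 0.18, adjusted p = 0.071 and 0.245). Without control replicate 2, its lowest control, Cd9 passed at -0.67 (adjusted p = 0.000214) and -0.50 (adjusted p = 0.00209). Axl, at 138, 69.4 and 167 CPM in controls, stood at 205, 190 and 168 CPM with Aβ42 and 160, 216 and 184 CPM with Aβ40. Its log2 fold change of 0.56 ± 0.27 with each fibril did not pass (adjusted p = 0.13 and 0.135), and moved with the controls: it was 0.27 with each fibril without replicate 2, the lowest control (adjusted p = 0.142 and 0.152), and 0.84 with each without replicate 3, where it passed (adjusted p = 0.033 and 0.0347). Cst7 stayed at 0 to 4 counts in every astrocyte library and was not tested.

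**Figure D3:**
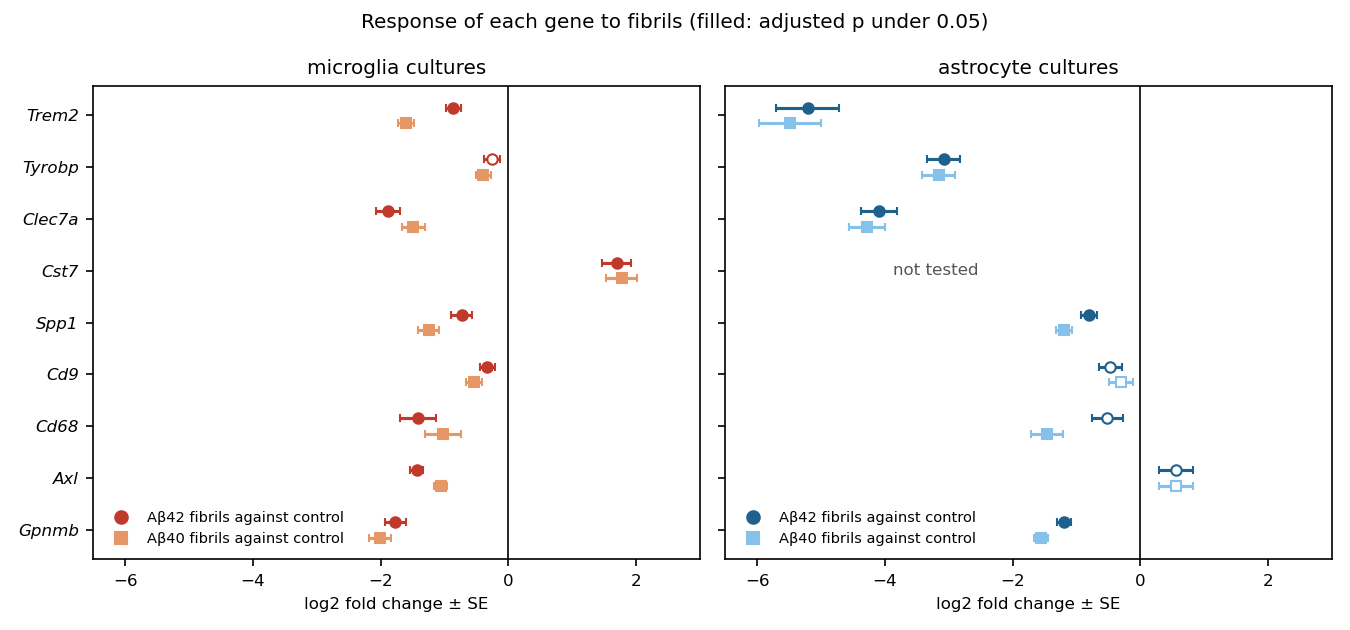
Log2 fold change ± SE of each gene with Aβ42 fibrils (circles) and Aβ40 fibrils (squares) against control, in microglia (left) and astrocytes (right), filled where the adjusted p was under 0.05. In microglia the changes run from -2.01 for Gpnmb to 1.77 for Cst7, and in astrocytes Trem2, at -5.49 with Aβ40, lies farthest to the left and Axl, unfilled at 0.56, to the right of 0.

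Between the fibrils, none of the 8 genes tested differed in astrocytes by edgeR's quasi-likelihood test with adjustment, where 0.0599% of all genes were called higher with Aβ42 and 0.0257% lower. The log2 differences ran from -0.17 to 0.94. At an unadjusted p under 0.05 there were 3 (Cd68, Spp1 and Gpnmb, all higher with Aβ42), and DESeq2's Wald test called 1, Cd68.

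The response itself was compared between the cell types in the joint fit. To Aβ42, Trem2, Tyrobp and Clec7a responded more negatively in astrocytes than in microglia, and Axl and Gpnmb less so, where 19.3% of 11581 genes had a lower and 17.9% a higher astrocyte response. To Aβ40, the same 3 responded more negatively and Axl less so, against 16% and 16.5% of all genes. The largest difference was that of Trem2, -4.34 ± 0.47 on the log2 scale with Aβ42 and -3.87 ± 0.47 with Aβ40 (adjusted p = 7.76e-07 and 3.54e-06, edgeR). Its size rests on 1 to 8 Trem2 counts in each treated astrocyte library. For Axl, which fell in microglia, the difference was 2.00 ± 0.29 and 1.64 ± 0.29 (adjusted p = 3.04e-05 and 0.000267). The astrocyte level of Axl went from 19.9% of the microglial one in controls to 80.2% with Aβ42 and 62.3% with Aβ40. The Gpnmb difference with Aβ42 was 0.59 ± 0.20 (adjusted p = 0.0236), and lost the call without astrocyte control replicate 3, microglia control replicate 2 or Aβ42-treated microglia replicate 2 or 3, at 0.48 to 0.53. Spp1 stayed at 5.24% to 5.75% of its microglial level in all 3 conditions. The plot of both cultures places the genes beside the microglia markers.

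**Figure D4:**
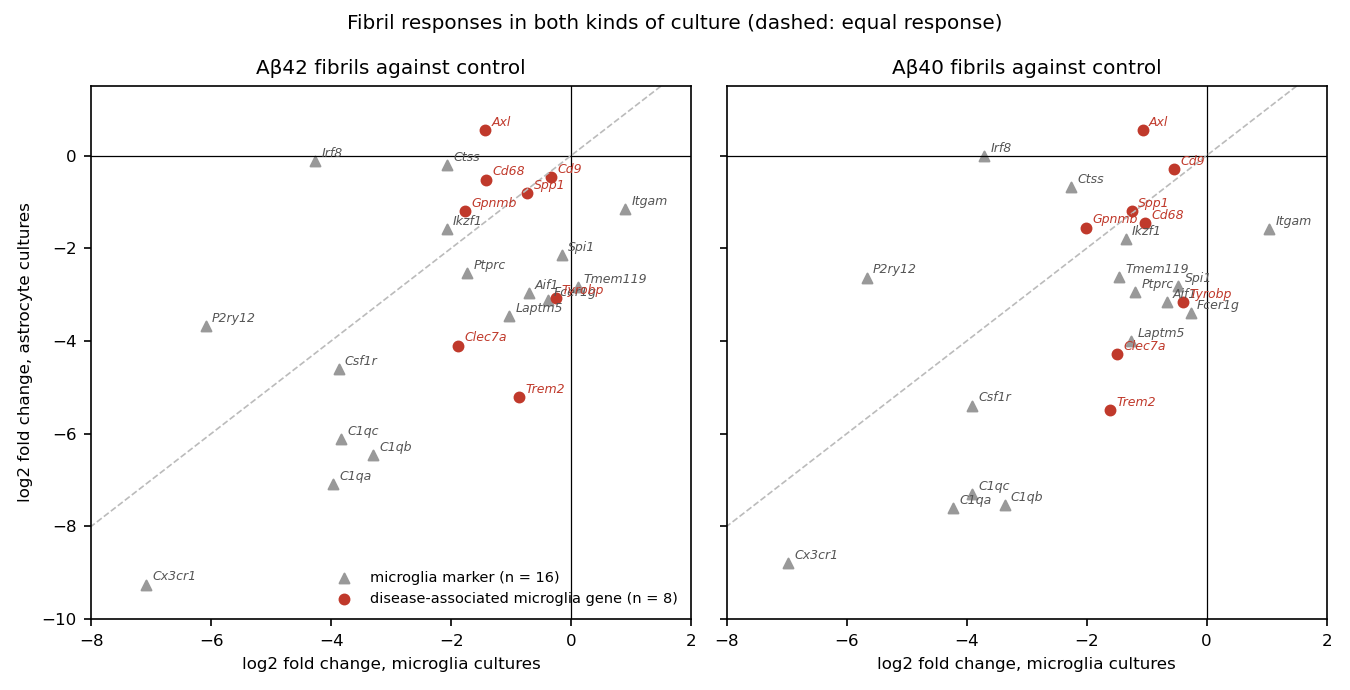
Log2 fold change in microglia cultures (horizontal axis) against that in astrocyte cultures (vertical axis) for 8 disease-associated microglia genes (red circles) and 16 microglia markers (grey triangles), with Aβ42 fibrils on the left and Aβ40 fibrils on the right, and a dashed line of equal response. Trem2, Tyrobp and Clec7a lie below the line with most markers, and Axl lies above it at 0.56; values of Cx3cr1 and P2ry12 come from fits on few counts.

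The wider programme split in microglia. The counts of each list are read beside all genes, of which 27.1% were called higher and 26.6% lower with Aβ42, and 19.6% and 21.4% with Aβ40. Of 26 other disease-associated microglia genes tested, 11 rose and 9 fell with Aβ42, and 10 rose and 10 fell with Aβ40, with medians of 0.26 and 0.12. Atp6v0d2, a subunit of the lysosomal proton pump, rose by 3.69 on the log2 scale with Aβ42 and 2.32 with Aβ40, and the chemokine Ccl4 by 3.55 and 3.15. Lpl, which releases fatty acids from lipoproteins, went from 2724 to 3672 CPM in controls down to 13.1 to 44.5 CPM and 15.2 to 19.7 CPM, and the growth factor Igf1 from 524 to 566 CPM to 4.42 to 10.04 CPM and 10.2 to 12.6 CPM. The resting-state genes went mostly down, 10 of 12 with each fibril (medians -2.49 and -2.51). Gpr34, a lysophospholipid receptor, went from 146 to 164 CPM to 0.325 to 0.873 CPM with Aβ42 and at most 2 counts with Aβ40, and P2ry13, a nucleotide receptor, from 19.2 to 28.5 CPM to at most 4 counts and 1 count. Olfml3 rose by 0.54 and 0.88, and Tmem119, at 0.11 with Aβ42, fell by 1.46 with Aβ40. The calls of Tmem119 with Aβ40 and of Olfml3 with Aβ42 were lost without any of 6 of the 9 microglia libraries, and Tmem119 was at 4.32 to 4.75 CPM in controls.

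Of 16 genes of signalling below Tyrobp tested, 11 fell and 2 rose with Aβ42, where 26.6% of all genes fell, and 10 fell and 2 rose with Aβ40, where 21.4% did (medians -0.86 and -0.77). Syk, the kinase that Tyrobp recruits, fell by 1.61 and 1.43 on the log2 scale, from 336 to 389 CPM to 108 to 133 CPM and 131 to 137 CPM. The adaptor Blnk (log2 -4.76 and -5.09) and the lipid kinase subunit Pik3cd (-2.73 and -2.89) were the lowest of the list. Bcl10, which carries the Card9 signal, rose in microglia by 0.31 with Aβ42 (0.15 and not called with Aβ40), a call lost without control replicate 2 or 3 or Aβ42 replicate 2 or 3.

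In microglia, other receptors that use Tyrobp went up where Trem2 went down. Trem1, an amplifier of inflammatory signals, went from 7.59 to 12.1 CPM in control microglia to 51.2 to 121 CPM with Aβ42 and 94.4 to 101 CPM with Aβ40 (log2 2.88 and 3.25, adjusted p = 8.25e-06 and 3.98e-06, edgeR). Trem3 rose by 2.01 and 1.46 and Clec5a by 0.69 (0.38 without Aβ42 replicate 1) and 1.21. Hcst, the sister adaptor DAP10, was at 0.15 with Aβ42 and fell by 0.84 with Aβ40, a call lost without control replicate 3 or Aβ40 replicate 1 or 2. In astrocytes only Clec5a of the 4 had counts enough to be tested, and there it stood at -1.12 with Aβ42 (adjusted p = 0.156) and fell by 1.83 with Aβ40 (adjusted p = 0.0357), on 2 to 19 counts a library, a call lost without control replicate 2 (-1.26) or Aβ40 replicate 1 (-1.91) or 3 (-1.37). Of 7 shedding and ligand genes of Trem2 tested in microglia, 4 rose and 3 fell with Aβ42, and 3 rose and 2 fell with Aβ40. Of all genes there, 27.1% rose and 26.6% fell with Aβ42, and 19.6% and 21.4% with Aβ40. The lipid carrier Clu rose by 1.65 and 1.49 and Apoe fell by 1.09 and 1.31, while Il34 went from 0.169 to 0.648 CPM, at most 3 counts, to 1.75 to 3.15 CPM and 1.52 to 3 CPM. Adam10, a protease that sheds Trem2, fell by 0.85 with Aβ42 and stood at -0.23 with Aβ40 (-0.24 and called without Aβ42 replicate 1).

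Partners of the remaining genes were read the same way. Around Axl, its ligand Gas6 (log2 -1.23 and -1.67) and the related protein Pros1 (-2.37 and -2.11) fell in microglia with both fibrils. Of the sister receptors, Mertk fell (-2.85 and -2.78), and Tyro3 stood at -0.20 and -0.25 without passing. Of 6 receptors of Spp1 tested, 2 rose and 2 fell with each fibril, beside 27.1% and 26.6% of all genes with Aβ42 and 19.6% and 21.4% with Aβ40: Itga5 (2.51 and 2.43) and Cd44 (2.11 and 2.43) rose, and Itgb5 (-3.01 and -3.44) and Itga4 (-2.77 and -2.34) fell. Itgb2, the β chain that pairs with Itgax, stood at -0.27 and -0.06, while the α chains Itgam (0.90 and 1.04) and Itgal (1.14 and 1.57) rose in microglia. All 3 of these integrin chains fell in astrocytes with both fibrils. Of 6 tetraspanins tested, Cd82 rose (1.86 and 1.54), Cd37 fell (-1.16 and -1.51), Cd53 (-0.68 and -0.39) and Cd151 (1.53 and 1.22) did not pass, and in all 1 rose and 2 fell with each fibril. Without Aβ42 replicate 1, Cd53 passed at -1.21 and -0.40, and Itgb2 at -0.36 with Aβ42.

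Among 8 cystatin and cathepsin genes tested, 6 fell with Aβ42 and 5 with Aβ40, and the rest did not pass. Of all genes, 26.6% were called lower with Aβ42 and 21.4% with Aβ40. Ctsc, the cathepsin that Cst7 inhibits, fell by 2.61 and 2.90 on the log2 scale, and Ctss by 2.07 and 2.26, with Ctsl at 0.25 (0.31 and called without Aβ42 replicate 1) and 0.04 and Cstb at 0.23 and 0.14. Lysosome membrane genes and the MiT/TFE factors that drive lysosomal genes fell in 5 of 7 cases with Aβ42 and 4 with Aβ40. Tfec fell by 2.5 and 2.15, Laptm5 by 1.03 and 1.25 and Tfeb by 1.27 with Aβ40 (-0.32 with Aβ42, not called), and Tfe3 stood at 0.09 and 0.03. Near Clec7a the lectins diverged: Clec4d rose by 5.55 and 5.38 and Clec4e by 4.09 and 3.85, while Clec4a fell by 2.25 and 2.69. These lectins were not tested in astrocytes.

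In astrocyte cultures the same lists were counted beside 16.5% of all genes higher and 20.4% lower with Aβ42, and 14.9% and 18.4% with Aβ40. Of the resting-state genes 6 of 11 tested fell and 1 rose with each fibril, and of the genes below Tyrobp 9 of 16 fell with Aβ42 and 10 with Aβ40, with 3 higher in each. Of the other disease-associated genes 8 of 26 rose and 9 fell with Aβ42, and 7 rose and 8 fell with Aβ40. The cystatin and cathepsin genes, of which none rose in microglia, rose in 3 of 8 cases and fell in 1 with Aβ42, and rose in 2 and fell in 2 with Aβ40. By the interaction test, astrocyte responses were higher for 6 of the 8 cystatin and cathepsin genes with each fibril and lower for 0. Of the 26 other disease-associated genes 9 were higher and 9 lower with Aβ42, and 8 and 7 with Aβ40. Of 12 resting-state genes 5 were higher and 2 lower with Aβ42, and 4 and 2 with Aβ40. Of 16 genes below Tyrobp it was 5 and 7, and 5 and 9. Of all genes, 17.9% were higher and 19.3% lower with Aβ42, and 16.5% and 16% with Aβ40. Differences between whole lists were not tested.

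**Figure D5:**
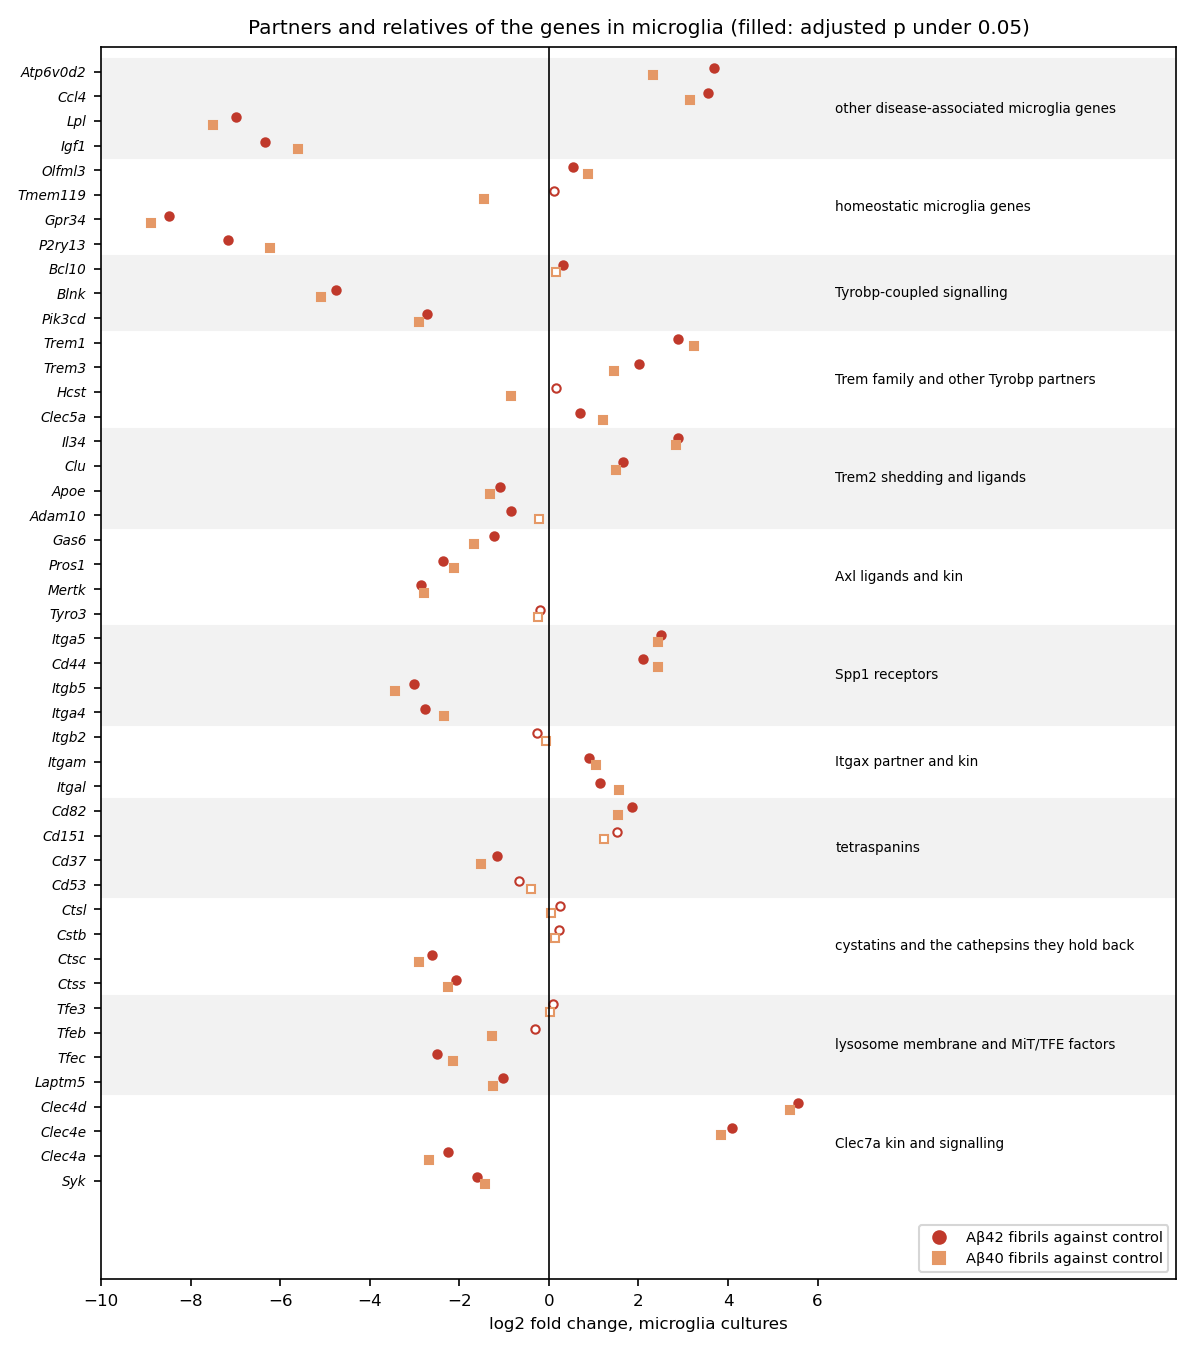
Log2 fold change in microglia with Aβ42 fibrils (circles) and Aβ40 fibrils (squares) against control for the genes named from 12 lists of partners and relatives, filled where the adjusted p was under 0.05, with the list's name at the right. The values run from Gpr34 and Lpl at the left, where Gpr34 and P2ry13 rest on few treated counts, to Clec4d at 5.55, and genes of the same list lie on both sides of 0 in most lists.

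The genes whose log2 CPM followed Trem2 most closely over the 9 microglia libraries were Rragc (Pearson r = 0.994), Tmem14c (0.993), Tmem140 (0.992), Ppa2 (0.989) and Arsa (0.988). These libraries share 3 conditions, so the r describes the pattern of the groups as much as that of the libraries. Among the disease-associated genes the r with Trem2 was 0.89 for Cd9, 0.88 for Spp1 and for Gpnmb, 0.80 for Tyrobp, 0.74 for Axl, 0.70 for Clec7a, 0.55 for Cd68 and -0.88 for Cst7. Of 10836 genes ranked by this measure, Cd9 was at place 623, Spp1 at 692, Gpnmb at 718 and Tyrobp at 1324. Axl was at 1728, Clec7a at 2022, Cd68 at 2839 and Cst7 at 10253.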

How the data were processed

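The authors made stranded poly(A) libraries and deposited raw read counts per gene symbol, 1 table for each of the 18 libraries. Per the labels and methods, STAR, Salmon, DESeq2 and the rn5 build were used, and versions and annotation are not given in the sources used here. Counts that name no gene, 21.7% to 34.2% of a library, were left out. Within each cell type all 3 groups entered edgeR 4.0.16 in R 4.3.3 (quasi-likelihood test, TMM, filterByExpr with a minimum count of 10, Benjamini-Hochberg adjustment), and cell types were compared over all 18 libraries. DESeq2 1.42.0, other scalings, filters, sample choices and left-out libraries served as alternatives. Groups came from the sample labels, which give no batch. The genes and lists were chosen with earlier results of these data known. Each of 12 related lists names its 2 highest and 2 lowest log2 fold changes with Aβ42 in microglia, and every gene of a list of 4, and 1 gene so named is not reported here. Scripts were tested on simulated data. Listed symbols not among those in the tables were Itgax, Ank, Siglech, Fcrls, Malt1, Pik3cg, Treml2, Treml4, Sirpb1, Itgav, Itga9 and Clec6a.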

Additional observations from a re-analysis of the deposited data

Results flagged for a closer look

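The response to fibrils differed between the cultures by the interaction test of the joint fit (edgeR, adjusted over all genes) for 5 genes with Aβ42 and 4 with Aβ40. With Aβ42 the log2 response in astrocytes minus that in microglia was -4.34 for Trem2 (adjusted p = 7.76e-07), -2.81 for Tyrobp (adjusted p = 9.96e-08), -2.21 for Clec7a (adjusted p = 5.37e-05), 2.00 for Axl (adjusted p = 3.04e-05) and 0.59 for Gpnmb (adjusted p = 0.0236). With Aβ40 it was -3.87 for Trem2 (adjusted p = 3.54e-06), -2.75 for Tyrobp (adjusted p = 1.34e-07), -2.77 for Clec7a (adjusted p = 3.7e-06) and 1.64 for Axl (adjusted p = 0.000267). The Trem2 values rest on 1 to 8 counts in treated astrocyte libraries. The summed microglia markers moved in the same cultures, from 573 to 688 CPM down to 63.9 to 90.7 CPM in astrocytes and from 10966 to 12833 CPM down to 3831 to 5034 CPM in microglia, and their part in these differences was not tested.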

How the results depend on the processing

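Leaving the counts unscaled shifted the median log2 fold change of all genes to 1.09 with Aβ42 and -0.90 with Aβ40 in microglia and to 2.01 between the fibrils, and to 0.58, 0.98 and -0.40 in astrocytes, where the main values lay near 0. Without scaling no gene of the set was called with Aβ42 in microglia (0 higher, 0 lower), 0 higher and 1 lower with Aβ40, 5 higher and 0 lower between the fibrils, 3 lower with each fibril in astrocytes, and in the comparison of responses 0 higher and 1 lower with Aβ42 and 0 lower with Aβ40. Values then turned sign for Trem2 (0.32), Tyrobp (0.79), Spp1 (0.28), Cd9 (0.85), Adam10 (0.075), Tyro3 (1.01), Itgb2 (0.74), Cd53 (0.0079), Tfeb (0.90) and Laptm5 (0.068) with Aβ42 in microglia. With Aβ40 there they did for Bcl10 (-0.75), Ctsl (-0.87), Cstb (-0.81) and Tfe3 (-0.89). Between the fibrils they did for Clec7a (1.42), Cst7 (1.83), Cd68 (1.29) and Axl (1.65), and in astrocytes for Cd9 (0.086 and 0.66) and Cd68 with Aβ42 (0.23). Library totals in place of TMM shifted the median of all genes to 0.28 between control cultures and called 1 gene higher in astrocytes, Cd9.

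At 2-fold 4 genes fell with Aβ42 in microglia, 0 were higher or lower between the fibrils, and 1 had a higher astrocyte response to Aβ42. At 5-fold no gene (0) was called in microglia or with a higher astrocyte response, and 3 fell in astrocytes with each fibril. Between the fibrils in microglia, 1 gene was higher with DESeq2 size factors, with only the compared groups fitted and with the replicate block, where Spp1 lost its call, and 0 were lower with the latter settings, where Axl did. In astrocytes 1 was higher between the fibrils by DESeq2's Wald test and with only the compared groups fitted. DESeq2 size factors left 1 higher astrocyte response to Aβ42. Tmem119 with Aβ42 stood at -0.0027 by DESeq2's Wald test and at -0.016 with the replicate block. Within each cell type the replicate numbers did not pair the libraries (same-number correlations from -0.53 to 0.36), and the block turned no other direction. Pairing between astrocyte and microglia libraries was not examined. Some astrocyte libraries of different number did correlate. The r was 0.53 for control replicate 2 with Aβ42 replicate 3, and 0.51 for Aβ42 replicate 3 with Aβ40 replicate 1. No fit took account of this.

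With 1 library left out, genes higher between the fibrils in microglia ranged from 1 to 3 and lower from 0 to 3, those higher in astrocytes from 0 to 1 with Aβ42, with Aβ40, between the fibrils and against microglia, and higher astrocyte responses from 1 to 3 with Aβ42 and 1 to 2 with Aβ40. Cst7 between the fibrils ranged from -0.18 to 0.079, Tmem119 with Aβ42 from -0.11 to 0.24, and with Aβ40 Itgb2 from -0.13 to 0.0089, Cd151 from -0.76 to 2.40 and Tfe3 from -0.020 to 0.10. The causes were not tested. In treated astrocytes depth limits Trem2 to at most 8 counts a library.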
